A study of Arabidopsis thaliana with 9 samples.

Results

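CLE41, CLE44, CLE26 and CLE45, which encode small secreted CLE peptides of vascular tissue, and MOL1 and PXL2, which encode receptor kinases of the family that holds the TDIF receptor PXY, were followed through a culture in which leaf cells become vascular cells. The 6 genes were chosen by name, each through a probe set that names only it, out of 16550 genes with such a probe set. All 6 were found, on 7 of the 38408 probe sets of the array. CLE41, CLE44, CLE26, CLE45 and MOL1 (loci AT3G24770, AT4G13195, AT1G69970, AT1G69588 and AT5G51350) have 1 probe set each, and PXL2 (AT4G28650) has 2.

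Transcript levels were measured on one-colour Affymetrix arrays, 1 for each of 9 samples of wild-type Arabidopsis thaliana, ecotype Col-0. All were cotyledons of 6-day-old seedlings that spent 48 hours in VISUAL medium with the auxin 2,4-D at 1.25 mg per litre, the cytokinin kinetin at 0.25 mg per litre and the GSK3 inhibitor bikinin at 10 µM, and all were sampled 96 hours after the step named CC induction. The labels give 3 groups of 3 samples. CC-S induces companion cells (CC) strongly, CC-M induces them moderately, and VISUAL does not induce them. The protocol text is the same for all groups, so the labels do not tell how their media differed. Whether replicates were cultured separately is not stated, and the p-values therefore reflect the spread among these samples alone, which may be technical. Each sample is a whole cotyledon culture, in which fewer cells of a type and less RNA per cell cannot be told apart.

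CLE peptides are cut from short precursor proteins and bind leucine-rich repeat receptor kinases on neighbouring cells. CLE41 and CLE44 both give rise to the peptide TDIF, which comes from the phloem side of the vascular bundle, is bound by PXY on procambial cells, keeps those cells from becoming xylem and promotes their division. GSK3 kinases, the targets of bikinin, act below PXY. CLE26 and CLE45 are expressed in the phloem, and their peptides hold back the differentiation of protophloem in the root, CLE45 through the receptor BAM3. MOL1 is known for limiting cambium activity in the stem. PXL2 is one of the closest relatives of PXY and has also been described, as MIK1, in pollen tubes.

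The question for each gene is whether its transcript level differed between strong induction, moderate induction and none. Between CC-S and VISUAL, MOL1 rose, at 1.53-fold, and it was the 1 gene of the 6 that passed limma's moderated test at an adjusted p under 0.05. That threshold was passed by 19.2% of all probe sets in this comparison, 10.1% as rises. The estimates for CLE44, CLE41 and PXL2 were above 0, at 0.77, 0.61 and 0.51 on the log2 scale, but did not pass. Their unadjusted limma p-values were 0.0286, 0.0153 and 0.0112, and that of MOL1 was 0.00114. An unadjusted p under 0.05 was reached by 11583 of all 38408 probe sets. The estimates of CLE26 and CLE45 were 0.13 and -0.12. The median difference was 0.56 over the 6 genes, with PXL2 by the brighter of its 2 probe sets, and 0.02 over all probe sets. The dimmer PXL2 probe set had a difference of -0.43, which did not pass. The 6 genes were chosen with earlier results of these data known, so their median is a description only.

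Between CC-M and VISUAL none of the 6 passed, where 11.6% of all probe sets did. An unadjusted limma p under 0.05 was reached by 2 of the 6 (CLE44 at 0.0206 and CLE41 at 0.0233) and by 9274 of all 38408 probe sets. The median difference was 0.22 over the 6 genes, again with PXL2 by its brighter probe set, and 0.02 over all probe sets. The dimmer PXL2 probe set had a difference of -0.44, which did not pass, although its unadjusted limma p was also under 0.05, at 0.0298. Between CC-S and CC-M again none passed, and only 0.0208% of all probe sets did, 0.00781% as rises and 0.013% as falls. MOL1 was there the 1 gene of the 6 with an unadjusted p under 0.05, at 0.0092, which 4935 of all 38408 probe sets also had. The comparisons with VISUAL share the 3 VISUAL arrays.

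**Figure D1:**
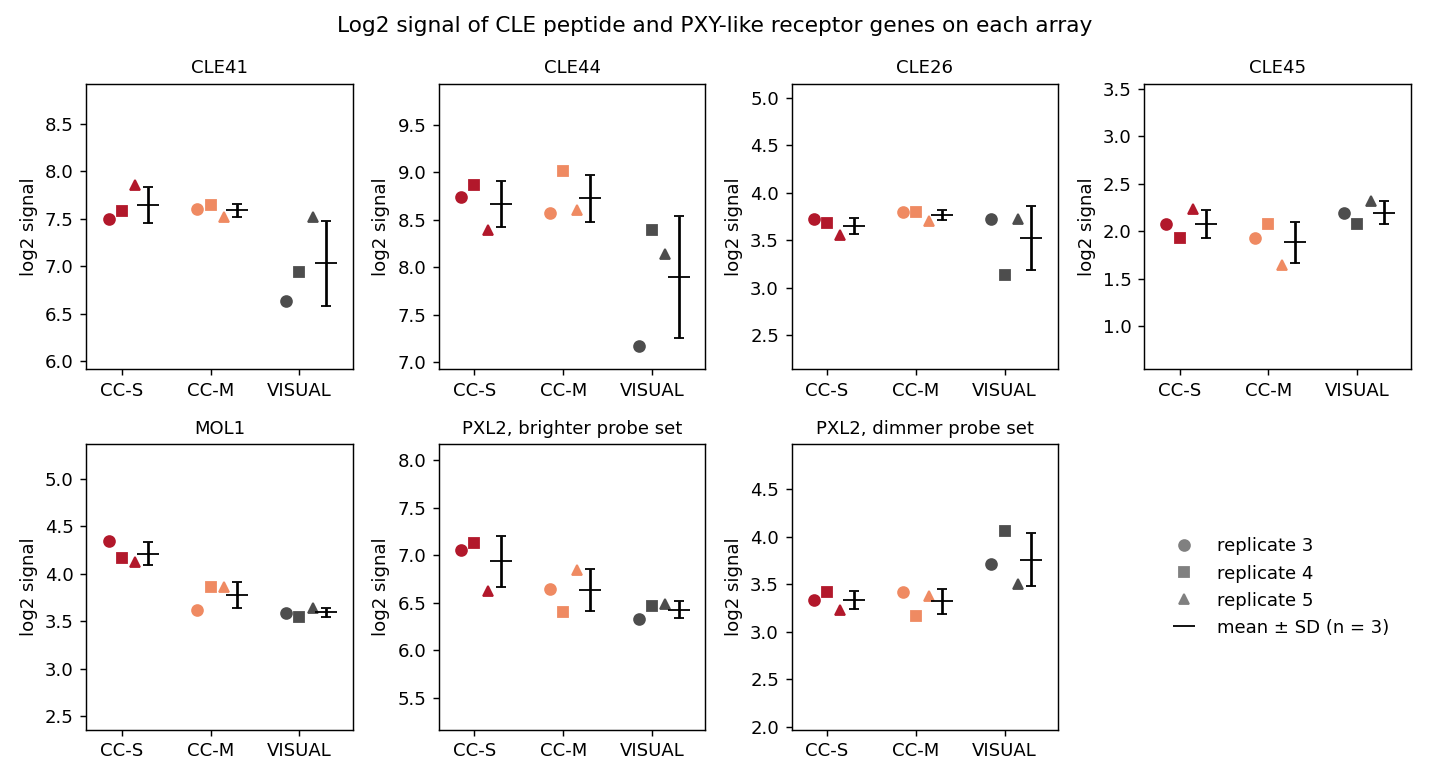
Log2 signal (vertical axes, each spanning 3 log2 units) of the 7 probe sets on each of the 9 arrays, by group; marker shapes give the replicate number, and bars give mean ± SD of 3 arrays. The CC-S arrays lie above the VISUAL arrays for CLE44, MOL1 and the brighter PXL2 probe set, and below them for the dimmer PXL2 probe set.

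CLE41, one of the TDIF genes, had a log2 signal of 7.49, 7.58 and 7.86 in CC-S replicates 3, 4 and 5, of 7.60, 7.65 and 7.52 in CC-M, and of 6.63, 6.94 and 7.52 in VISUAL. The induced arrays lay close together, while the VISUAL arrays spread widely, and VISUAL replicate 5 reached the level of the CC-M arrays. The means were 7.64 ± 0.19 in CC-S, 7.59 ± 0.07 in CC-M and 7.03 ± 0.45 in VISUAL (SD, n = 3 each). The difference was 0.61 between CC-S and VISUAL (95% interval 0.15 to 1.07, limma adjusted p = 0.0704) and 0.56 between CC-M and VISUAL (0.10 to 1.02, limma adjusted p = 0.126). Both single-gene intervals lie above 0, but neither difference passed once all probe sets were adjusted for. Without VISUAL replicate 5 both passed, at 0.86 (adjusted p = 0.0068) and 0.80 (adjusted p = 0.0156). Without VISUAL replicate 3 they were 0.41 (adjusted p = 0.181) and 0.36 (adjusted p = 0.301) and did not pass.

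CLE44, the other TDIF gene, had a log2 signal of 8.74, 8.87 and 8.39 in CC-S replicates 3, 4 and 5, of 8.57, 9.01 and 8.60 in CC-M, and of 7.17, 8.39 and 8.14 in VISUAL. Every induced array lay above every VISUAL array, by less than 0.01 at the closest point, and VISUAL replicate 3 lay far below the other 2. The means were 8.67 ± 0.24 in CC-S, 8.73 ± 0.25 in CC-M and 7.90 ± 0.64 in VISUAL (SD, n = 3 each). The difference was 0.77 between CC-S and VISUAL (95% interval 0.10 to 1.43, limma adjusted p = 0.111) and 0.83 between CC-M and VISUAL (0.16 to 1.49, limma adjusted p = 0.116). Neither passed. Without VISUAL replicate 3 the estimates were 0.40 and 0.46, and without VISUAL replicate 4 that for CC-S was 1.01, which passed (adjusted p = 0.0474).

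The 2 TDIF genes had their lowest signal on the same array, VISUAL replicate 3. Neither differed detectably between the strengths of induction. CC-S minus CC-M was 0.054 for CLE41, with a 95% interval of -0.41 to 0.52, and -0.059 for CLE44, with an interval of -0.72 to 0.61.

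CLE26, the first of the phloem peptide genes, had a log2 signal of 3.72, 3.68 and 3.56 in CC-S replicates 3, 4 and 5, of 3.80, 3.80 and 3.70 in CC-M, and of 3.72, 3.13 and 3.72 in VISUAL. All arrays but VISUAL replicate 4 lay within a narrow band, so the groups overlapped. The difference was 0.13 between CC-S and VISUAL (95% interval -0.27 to 0.53) and 0.24 between CC-M and VISUAL (-0.16 to 0.64), neither of which passed (limma adjusted p = 0.697 and 0.479). The estimate for CC-S changed sign without VISUAL replicate 4, to -0.066. The deposited value was identical on 3 arrays, CC-S replicate 3 and VISUAL replicates 3 and 5. Such ties occur at 33.1% of all probe sets, and CLE41 and MOL1 have 1 pair each.

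CLE45, the second phloem peptide gene, was the dimmest of the 6. Its log2 signal was 2.07, 1.93 and 2.23 in CC-S replicates 3, 4 and 5, 1.93, 2.07 and 1.64 in CC-M, and 2.19, 2.08 and 2.32 in VISUAL. The 3 CC-M values lay below the 3 VISUAL values by less than 0.01 at the closest point, while CC-S overlapped with both. The difference was -0.12 between CC-S and VISUAL (95% interval -0.48 to 0.24, limma adjusted p = 0.694) and -0.31 between CC-M and VISUAL (-0.67 to 0.05, limma adjusted p = 0.277). CLE45 had a mean over the 9 arrays at or above that of just 8.18% of probe sets, and the files carry no detection call, so whether the gene was detected at all is not known. This share was 33.4% for CLE26 and 36.6% for MOL1, against 71.3% for the brighter PXL2 probe set, 79.1% for CLE41 and 87.7% for CLE44.

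MOL1, the receptor kinase gene that limits cambium activity, had a log2 signal of 4.34, 4.16 and 4.12 in CC-S replicates 3, 4 and 5, of 3.62, 3.86 and 3.86 in CC-M, and of 3.59, 3.54 and 3.64 in VISUAL. The CC-S arrays stood above all others, and CC-M overlapped with VISUAL. The means were 4.21 ± 0.12 in CC-S, 3.78 ± 0.14 in CC-M and 3.59 ± 0.05 in VISUAL (SD, n = 3 each). MOL1 rose by 0.62 between CC-S and VISUAL (SE 0.13, 95% interval 0.32 to 0.91, limma adjusted p = 0.0106), and 9.985% of all probe sets had a larger difference. The call was kept under each of the 15 other settings in which MOL1 was tested, with adjusted p up to 0.0426. In CC-M the gene was 0.19 above VISUAL (-0.11 to 0.48, limma adjusted p = 0.456).

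CC-S exceeded CC-M for MOL1 by 0.43 (95% interval 0.14 to 0.73). It was the 1 gene of the 6 for which the values of these groups did not overlap, which held for 18.1% of all probe sets (9.03% with CC-S higher), and the difference did not pass (limma adjusted p = 0.196). MOL1 was the 1 measured gene of 6 fixed procambium markers. Markers of other cell types moved between CC-S and VISUAL, where 10.1% of all probe sets rose and 9.07% fell. Of 3 measured xylem vessel genes out of 14, IRX15 and IRX10 fell, and IRX15-L did not pass at -0.88 (limma adjusted p = 0.114). The summed linear signal of all 3 ran from 996 to 1641 in CC-S and from 2062 to 2969 in VISUAL. Of 2 measured companion cell genes out of 9, SAPL rose and NHL26 fell (summed signal 427 to 624 in CC-S and 227 to 283 in VISUAL). Of 2 measured phloem parenchyma genes out of 3, SWEET11 rose by 2.33 (limma adjusted p = 0.0101) and SWEET13 did not pass (summed signal 947 to 1725 in CC-S and 159 to 555 in VISUAL). Of the mesophyll and stomatal lineage markers, 3 measured of 7 and 3 measured of 6, none passed. The part of these cell types in the rise of MOL1 was not tested. The 11 sieve element markers were not analysed here.

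PXL2, the relative of PXY, was read by 2 probe sets that name only this gene, and they moved apart. The brighter one had a log2 signal of 7.06, 7.13 and 6.63 in CC-S replicates 3, 4 and 5, of 6.65, 6.40 and 6.85 in CC-M, and of 6.33, 6.47 and 6.49 in VISUAL. CC-S lay above VISUAL on every array, with replicate 5 the lowest of the 3, and CC-M overlapped with both. The difference was 0.51 between CC-S and VISUAL (SE 0.16, 95% interval 0.15 to 0.87), just short of passing (limma adjusted p = 0.0561). It was 0.20 between CC-M and VISUAL (-0.16 to 0.56, limma adjusted p = 0.509) and 0.30 between CC-S and CC-M (-0.06 to 0.66, limma adjusted p = 0.482). Without CC-S replicate 5 the difference between CC-S and VISUAL passed, at 0.66 (adjusted p = 0.0148).

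The dimmer PXL2 probe set had a log2 signal of 3.34, 3.42 and 3.23 in CC-S replicates 3, 4 and 5, of 3.42, 3.17 and 3.38 in CC-M, and of 3.72, 4.06 and 3.50 in VISUAL. Here both induced groups lay below VISUAL on every array and overlapped with each other. The differences from VISUAL were -0.43 in CC-S (95% interval -0.81 to -0.05, limma adjusted p = 0.121) and -0.44 in CC-M (-0.82 to -0.05, limma adjusted p = 0.149), neither of which passed. Which part of the gene or which strand each probe set reads is not stated. The direction of PXL2 therefore depends on the probe set: with the mean of both, CC-S differed from VISUAL by 0.038 and CC-M by -0.12.

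**Figure D2:**
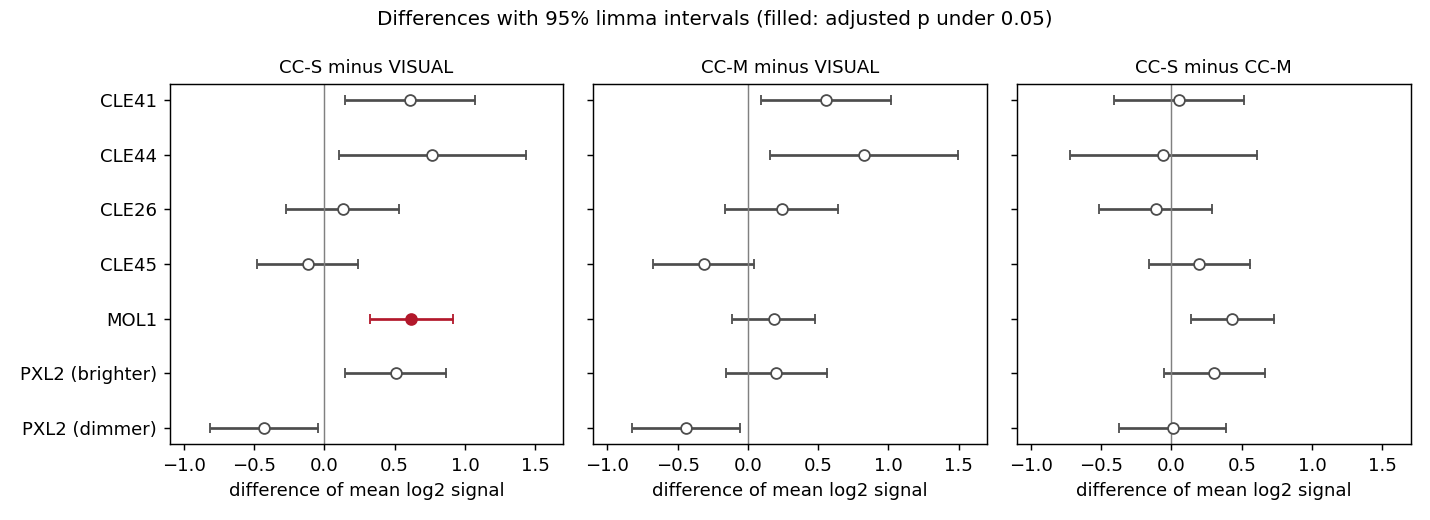
Differences of mean log2 signal (horizontal axes) with 95% intervals from limma for the 7 probe sets, in a panel for each comparison; filled points have an adjusted p under 0.05 over all probe sets. Only MOL1 between CC-S and VISUAL is filled, and the PXL2 probe sets lie on opposite sides of 0 in both comparisons with VISUAL.

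The values of CC-S and VISUAL did not overlap, upward, for 3 of the 6 genes (CLE44, MOL1 and PXL2 by its brighter probe set), as they did for 17.2% of all probe sets (32.6% in either direction). Between CC-M and VISUAL this held for CLE44 upward and CLE45 downward, where 27.6% of probe sets did not overlap in either direction. CLE41 overlapped in both comparisons through 1 array, VISUAL replicate 5.

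**Figure D3:**
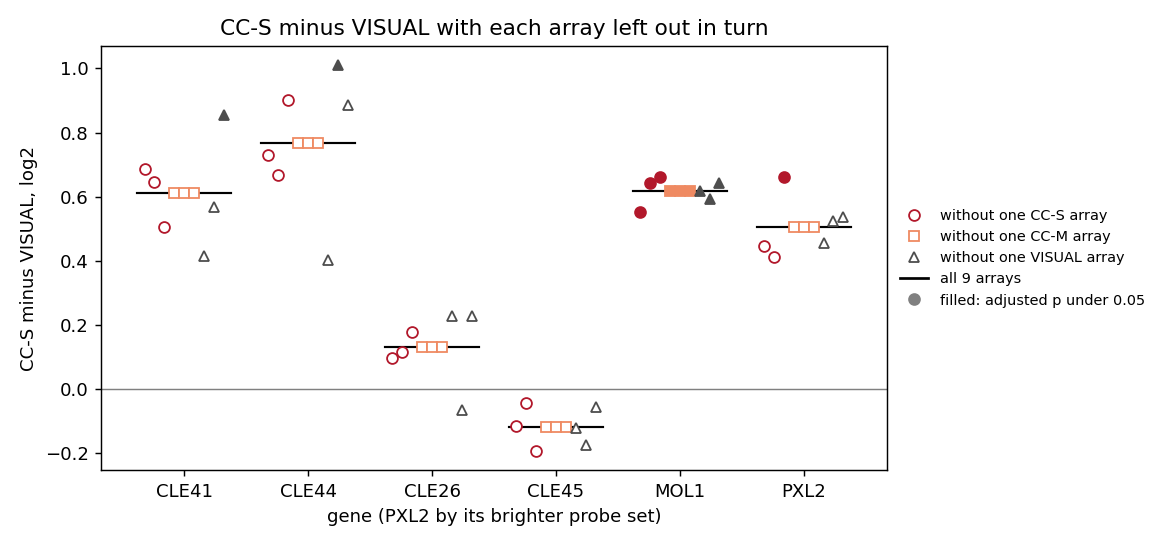
CC-S minus VISUAL on the log2 scale (vertical axis) for the 6 genes, recomputed without each of the 9 arrays; the line is the value with all arrays, and filled markers have an adjusted p under 0.05. MOL1 is filled throughout, while CLE41, CLE44 and PXL2 are each filled without 1 array only, VISUAL replicate 5, VISUAL replicate 4 and CC-S replicate 5.

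The TDIF genes were set beside the rest of their family. Of 47 CLE genes listed, 18 were measured, 7 of them through a name that only the platform's annotation gives. Those 7 were CLE1, CLE14, CLE16, CLE20, CLE21, CLE42 and CLE43. Of these 18, 3 fell and 0 rose between CC-S and VISUAL, and 2 fell and 0 rose between CC-M and VISUAL; 9.07% and 5.15% of all probe sets fell in these comparisons. Between CC-S and CC-M 0 of 18 passed limma's test. There 3 of the 18 (CLE16, CLE20 and CLE43) had an unadjusted p under 0.05, as did 4935 of all 38408 probe sets. The median difference of the 18 was 0.01 in CC-S and -0.05 in CC-M against VISUAL. The largest positive estimates were those of CLE44 and CLE41, neither of which passed.

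CLE42 encodes a peptide very close to TDIF, and its estimates had the opposite sign to those of CLE41 and CLE44. Only the platform's annotation names its probe set CLE42, whereas those of CLE41 and CLE44 were also matched in the gene table. Its log2 signal was 5.18, 4.78 and 4.89 in CC-S, 5.04, 5.29 and 4.86 in CC-M, and 5.98, 5.82 and 5.64 in VISUAL. All induced arrays lay below all VISUAL arrays. CLE42 fell by 0.86 in CC-S (limma adjusted p = 0.00609) and by 0.74 in CC-M (limma adjusted p = 0.0199) against VISUAL. The call for CC-M ended without CC-M replicate 3 or 5 or VISUAL replicate 3 (adjusted p up to 0.0693). CLE46, the remaining gene of the TDIF-like group, differed from VISUAL by 0.024 in CC-S and -0.021 in CC-M, and did not pass.

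CLE18 had the largest fall of the measured CLE genes. Its log2 signal was 3.13, 3.19 and 3.29 in CC-S, 2.88, 3.02 and 2.93 in CC-M, and 4.75, 4.11 and 4.40 in VISUAL, with no overlap between the induced groups and VISUAL. CLE18 fell by 1.21 in CC-S (limma adjusted p = 0.00165) and by 1.48 in CC-M (limma adjusted p = 0.00119). Its probe set is dim and was not tested when the dimmest 40% of probe sets were left out. Both calls were kept under the 15 other settings in which CLE18 was tested. CLE14, known for delaying leaf senescence, fell by 0.86 in CC-S (limma adjusted p = 0.0147), a call that ended without VISUAL replicate 5 (adjusted p = 0.0548), and had a difference of -0.57 in CC-M that did not pass. CLE25, another CLE gene of the phloem, had differences of -0.34 in CC-S and -0.42 in CC-M that did not pass, with 4.19, 4.07 and 4.34 in CC-S, 4.24, 4.24 and 3.90 in CC-M and 4.41, 4.23 and 4.99 in VISUAL. The other measured members were not called: CLV3, CLE1, CLE16, CLE20, CLE21, CLE22, CLE27, CLE40 and CLE43 differed from VISUAL by -0.20 to 0.35 in CC-S and by -0.57 to 0.22 in CC-M.

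Of 21 listed receptors and co-receptors of CLE peptides 5 were measured, and 1 of them, MOL1, rose between CC-S and VISUAL, where 10.1% of all probe sets rose. PXL1, the other close relative of PXY, differed from VISUAL by 0.048 in CC-S and 0.17 in CC-M by the brighter of its 2 probe sets, and by -0.16 and 0.29 by the dimmer one. CIK2 and CIK4, co-receptors of CLE receptors, differed by 0.49 and 0.27 in CC-S and by 0.25 and 0.17 in CC-M, none of which passed. PXY, BAM3, CLV1, CLV2, CRN and RPK2 were not analysed here, so the receptors known to bind TDIF and CLE45 in vascular tissue are missing from this account. Of 29 listed genes of procambium and cambium signalling 1 was measured, LHW, which is not read here as a measure of signalling through PXY. LHW encodes a bHLH factor that promotes divisions of vascular precursor cells, and it rose by 0.50 in CC-S (limma adjusted p = 0.0305). That call ended when replicate 3 of CC-S was left out, and likewise when replicate 4 of any group or replicate 5 of VISUAL was (adjusted p between 0.0502 and 0.11). Of 24 listed genes of phloem signalling 5 were measured. In CC-S SAPL, SWEET11 and PEAR2 rose and PAX, a kinase gene of the protophloem, fell by 0.57, while OPS did not pass at 0.31. Of all probe sets 10.1% rose and 9.07% fell in this comparison. The call of PEAR2 (limma adjusted p = 0.0221) ended without any one of the 3 VISUAL arrays (adjusted p between 0.054 and 0.0627). In CC-M SAPL rose, PAX fell by 0.67 and OPS, PEAR2 and SWEET11 did not pass, at -0.082, 0.18 and 1.31. Of all probe sets 6.49% rose and 5.15% fell between CC-M and VISUAL.

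**Figure D4:**
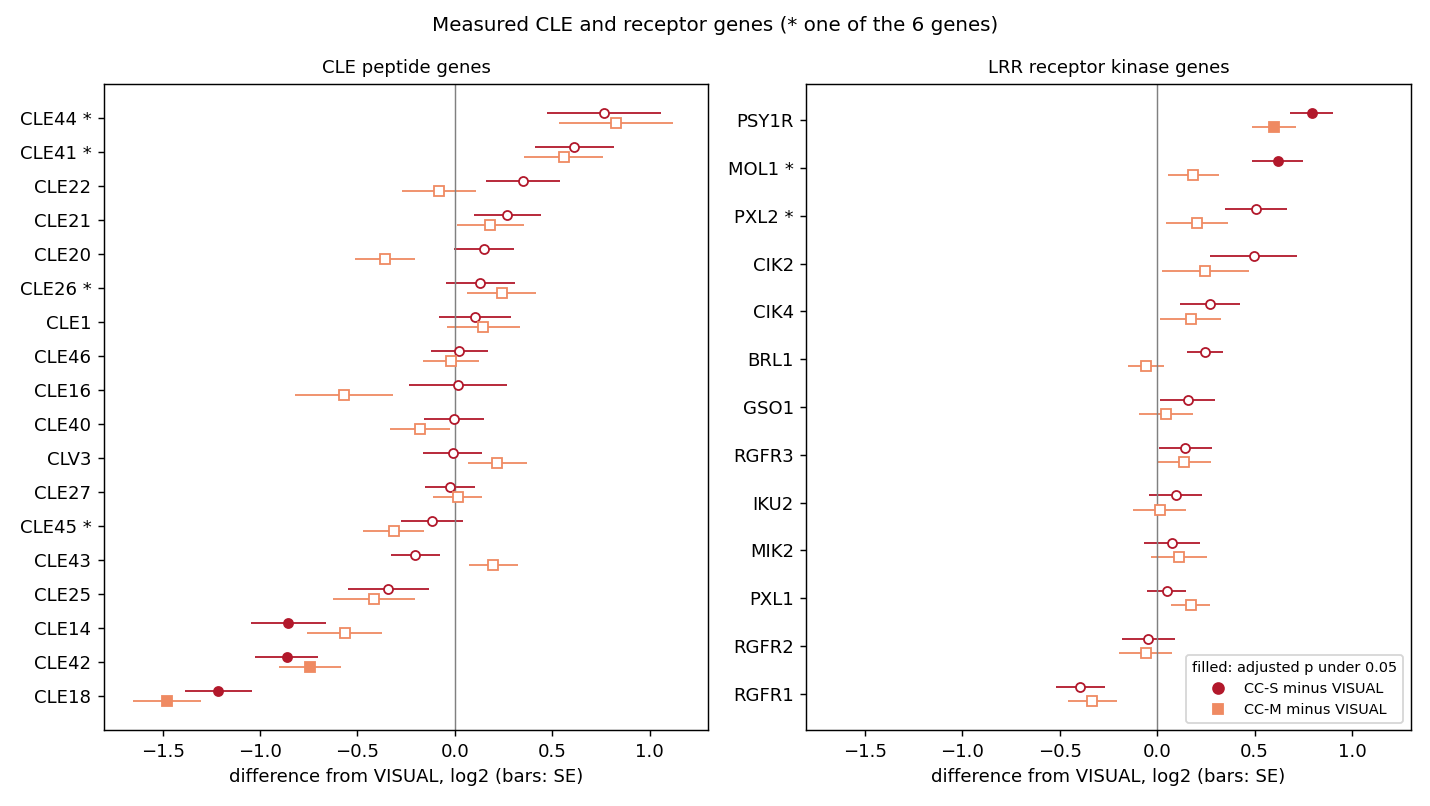
Differences from VISUAL on the log2 scale (horizontal axes, bars give the SE) for the 18 measured CLE genes and 13 measured receptor kinase genes, CC-S as circles and CC-M as squares; filled markers have an adjusted p under 0.05, and stars mark genes of the 6. CLE18, CLE42 and CLE14 are filled on the left of 0, and PSY1R and MOL1 on the right.

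The single-gene probe sets whose signal ran most like that of each gene were found by Pearson's r over the 9 arrays, which include the differences between groups. Among 16722 probe sets a high r with 9 points is easily reached, so the values are a description. For CLE41 they were those of AT5G38920, AT3G49000 and AT2G24020 (r = 0.967, 0.967 and 0.951). For CLE44 they were PGL34, a plastoglobule protein gene, AT1G59970 and AT4G12290 (r = 0.979, 0.977 and 0.976). For CLE41, CLE44 and all of these genes VISUAL replicate 3 was the lowest array. CLE26 ran most like AT1G11220, AT5G22150 and AT1G30060 (r = 0.961, 0.948 and 0.941). On VISUAL replicate 4 CLE26 and these genes all had their lowest signal, at 3.13, 2.09, 2.61 and 3.77. How far r rests on such single arrays was not tested. CLE45 ran most like AT3G54270, AT3G62528 and AT4G24710 (r = 0.929, 0.929 and 0.928). MOL1 ran most like AT3G60510, AT2G25730 and AT5G06220 (r = 0.978, 0.964 and 0.961), and PXL2 most like ATNTT2, a plastid ATP/ADP transporter gene, AT5G44578 and AT5G58930 (r = 0.964, 0.955 and 0.950). The probe sets of the 6 genes were left out of the search, so none of the 6 could appear. No other gene of the fixed lists was among the similar genes, and those named for CLE41 and CLE44 share no gene.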

How the data were processed

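The authors' deposited table holds log2 signals of 38408 probe sets on 9 arrays, from 0.0698 to 13.9, with array medians of 4.71 to 4.90. Affymetrix Expression Console is the one tool in the submitters' processing notes, without a version, a summary method or a genome build. Values were used as deposited, with no detection filter. The number of arrays limits the precision.

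Names came from the platform annotation, brought up to date through gene numbers with a gene table of assembly TAIR10.1 (16574 of 16722 single-gene probe sets matched). For genes with several, the brightest was used, and for PXL2 both are given. The 3 comparisons were tested in 1 fit with limma 3.58.1 in R 4.3.3 (lmFit, eBayes with an intensity trend, 2-sided), with Benjamini-Hochberg adjustment across every probe set and a call at 0.05; intervals are unadjusted. The fit was tested on simulated data.

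The 6 genes and the lists were chosen with earlier results of these data known. Named genes are the 6, all measured CLE and CLE receptor genes, in each comparison up to 4 genes of each other list by p, and the 3 most similar probe sets per gene. For 17 list genes the locus was added after the annotation was seen. Alternatives were a replicate block, other normalizations, a filter on dim probe sets, other variance settings, array weights, fewer samples in the fit and each array left out.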

Additional observations from a re-analysis of the deposited data

How the results depend on the processing

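Of the 285 results of the 6 genes under other settings, 271 kept their direction and their side of the threshold, 7 passed where they had not, 7 changed sign and 0 lost a call. Only the 15 results of MOL1 between CC-S and VISUAL could lose a call, as MOL1 was the 1 gene called in the main setting. Between CC-S and VISUAL the count of called genes was 1 and became 2 without the dimmest 40% of probe sets (CLE41 and PXL2; MOL1, CLE26 and CLE45 were then not tested) and 2 with arrays weighted by quality (MOL1 and PXL2, adjusted p = 0.0425). With single arrays left out it ran from 1 to 2, and between CC-M and VISUAL from 0 to 1; between CC-S and CC-M it was 0 throughout. Signs changed for PXL2 by its dimmer probe set (-0.43 in CC-S and -0.44 in CC-M against VISUAL) and in CC-M by the mean of both (-0.12), settings added after seeing the data. With single arrays left out CC-S minus VISUAL ran from -0.066 to 0.23 for CLE26, and CC-S minus CC-M from -0.054 to 0.13 for CLE41 and from -0.16 to 0.082 for CLE44, positive with CC-S replicate 5 (0.077) or with CC-M replicate 4 (0.082) left out. The cause was not tested.

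Samples of different groups share replicate numbers. Deviations from group means correlated at -0.03 to 0.12 over 9 same-numbered pairs of arrays, 2 of them over 0.1. Over 18 differently numbered pairs they correlated at -0.16 to 0.08, with 0 over 0.1. These values do not settle whether the numbers pair the samples. The main fit did not pair them, and a replicate block was tried as an alternative. With the replicate block MOL1 had an adjusted p of 0.0281, CLE41 one of 0.052, CLE44 0.0685 and PXL2 0.101 between CC-S and VISUAL, which changed no call of the 6, and 7365 probe sets were called. Over all probe sets the calls between CC-M and VISUAL, 4470, fell to between 2450 and 2940 without single CC-M arrays and to 2932 without VISUAL replicate 5. Those between CC-S and CC-M, 8 (3 higher and 5 lower), ran from 0 to 847, with 42 (20 higher and 22 lower) under quantile normalization and 38 with median centring.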

Other observations

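A list of other leucine-rich repeat receptor kinase genes of vascular or peptide signalling held 29 names, of which MIK1 is another name of PXL2. Through these names 8 genes were measured. Against VISUAL 19.2% of all probe sets passed in CC-S and 11.6% in CC-M. Of the 8 genes PSY1R, a receptor kinase gene named for the growth-promoting peptide PSY1, was the 1 that passed. Its log2 signal was 6.47, 6.40 and 6.50 in CC-S replicates 3, 4 and 5, 6.33, 6.22 and 6.24 in CC-M and 5.54, 5.89 and 5.57 in VISUAL, so that both induced groups lay above VISUAL on every array. PSY1R rose by 0.79 in CC-S (limma adjusted p = 0.00159) and by 0.60 in CC-M (limma adjusted p = 0.0108) against VISUAL, and kept both calls under all 16 other settings. CC-S minus CC-M was 0.19 (95% interval -0.06 to 0.45, limma adjusted p = 0.535). RGFR1, a receptor of root meristem growth factors, differed from VISUAL by -0.39 in CC-S and -0.33 in CC-M by its brighter probe set and by 0.0032 and -0.17 by the dimmer one, and BRL1, a vascular brassinosteroid receptor gene, by 0.24 and -0.056; neither passed. GSO1, RGFR3, MIK2 and IKU2 lay between 0.076 and 0.16 in CC-S and between 0.013 and 0.14 in CC-M, and did not pass.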
